A study of Mus musculus with 68 samples.

Results

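The respiratory chain subunits encoded in the nucleus were followed in mouse embryonic fibroblasts (MEFs) under endoplasmic reticulum (ER) stress. Members were the protein-coding genes whose symbol begins with Nduf, Uqcr, Cox4 to Cox8 or Atp5, or is Sdha, Sdhb, Sdhc or Sdhd. Of 93 annotated symbols of this form, 86 were listed, out of 13378 genes in all. The other 7 (Cox4i1, Cox4i2, Cox7a1, Cox7b2, Cox8b, Cox8c and Ndufa4l2) were not analysed here, nor were the subunits encoded by mitochondrial DNA. The name rule also takes in genes that are not subunits, namely 8 complex I assembly factors (Ndufaf) and Atp5s, the coupling factor B of ATP synthase. The remaining members were 7 core and 29 accessory subunits of complex I, 4 subunits of complex II, 8 of complex III, 13 of complex IV (Ndufa4 is counted here), 5 of the F1 head of complex V and 11 of its Fo part and stalks.

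The respiratory chain passes electrons from NADH and succinate to oxygen through complexes I to IV in the inner mitochondrial membrane, and complex V, the ATP synthase, uses the proton gradient they build. Most subunits are encoded in the nucleus and imported, many of them small proteins with short mRNAs. Tunicamycin (TM) blocks N-linked glycosylation, so that unfolded proteins build up in the ER and the unfolded protein response is switched on.

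The study compared cells of 8 inbred strains, 129S1Sv/ImJ (129), A/J (A), C57BL/6J (B6), CAST/EiJ (CAST), NOD/ShiLtJ (NOD), NZO/H1LtJ (NZO), PWK/PhJ (PWK) and WSB/EiJ (WSB), and of 5 F1 crosses of C57BL/6J with 129S1Sv/ImJ, CAST/EiJ, NOD/ShiLtJ, NZO/H1LtJ and WSB/EiJ (x129, xCAST, xNOD, xNZO and xWSB), each with a C57BL/6J mother. Cells received TM at 2 ug/ml or the DMSO vehicle (control) for 4 h. There were 18 control and 22 TM libraries of the founder strains and 14 of each from the F1 crosses, with 2 or 3 libraries per genotype and treatment. The cells of a genotype were a mix from several female embryos of 1 litter, so p-values measure the spread between cultures of that mix, and genotype and litter cannot be told apart. Values are signal, that is the reads of a gene scaled by the size of its library, not divided by transcript length, and the founder and F1 tables were scaled separately. A change is TM minus control on the scale log2(signal + 0.1), which understates the change of genes with a low signal. A gene was called raised or lowered at a limma adjusted p below 0.05.

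The 66 libraries whose reads could be recovered held between 6442976 and 29528457 reads on genes. All 6 genes listed as a check of the treatment were raised in both sets, with log2 changes of 2.82 in founders and 2.90 in F1 cells for Hspa5, the ER chaperone BiP. All 7 fibroblast markers were listed, with a summed signal of at least 10488 in every library, against at most 6.28 for the 2 listed of 7 muscle markers. The highest sums of other lists in any library were 116 for brown adipocyte (2 of 5 listed), 58.3 for myeloid (6 listed), 17.9 for endothelial (4 of 4) and 78.3 for epithelial markers (3 of 4). Of the 7 fibroblast markers 6 were lowered by TM in founders and 3 in F1 crosses, and the summed myeloid markers had a median of 24.2 in founder controls and 13.2 with TM (8.74 and 4.87 in F1 crosses), the epithelial ones of 23.0 and 12.02 in founders. The part of these markers in the members' changes was not tested. In 5 libraries genes other than members with transcripts under 1000 nt stood apart, by a median of over 0.4 on the log2 scale, up or down, from each gene's mean over its set. The members' median deviations there were 0.63 in TM replicate 1 of 129, 0.69 in TM replicate 2 of A, -0.55 in TM replicate 2 of NZO, 0.55 in TM replicate 1 of xNOD and 0.85 in control replicate 1 of xWSB. The members alone passed 0.4 in 3 more, TM replicate 1 of A (-0.41), TM replicate 1 of NZO (-0.44) and TM replicate 2 of x129 (-0.43). The members took 0.743 to 1.02% of the signal in founder controls and 0.583 to 1.15% in founder TM libraries, so the ranges overlapped. In bulk RNA, fewer cells of a kind and less RNA per cell cannot be told apart.

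Levels between genes were compared per kb of transcript in founder control cells. Atp5b, the catalytic beta subunit of ATP synthase, stood at 739 signal per kb, the highest of the members, followed by Cox6a1 (426) and Atp5g3 (382). The medians were 249 for the F1 head, 124 for complex IV, 113 for Fo and the stalks, 108 for complex III, 68.6 for complex II, 56.0 for the core and 55.9 for the accessory subunits of complex I. The assembly factors lay far lower, between 3.29 and 15.7 signal per kb (median 8.09). Cox6a2, the heart and muscle isoform of subunit 6a, was lowest at 0.379.

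Short sequence matches in promoters were read for 71 of the 86 members, in RefSeq windows of GRCm38.p6 from 250 bases before to 50 after the start. The palindromic match of the factor NRF1, marked in the lines that follow, was held by 7 of 71 members (9.86%), against 2.25% of 10349 listed genes with a window. The YY1 match AAGATGGCG, searched on both strands, was present in 8 members (11.3%) and in 3.46% of listed genes. The matches are descriptions of letters, not shown sites of binding. The 7 NRF1 matches are printed here since members with one moved in both directions, from Atp5k (log2 change -0.64 in founders) to Ndufaf4 (0.32). Capitals mark the match, the flanks are 10 bases, and each line runs 5′ to 3′ on the gene's strand.
Atp5g2 (chr15:102671070-102671099, minus strand): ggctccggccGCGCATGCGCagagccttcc
Atp5k (chr5:108434430-108434459, minus strand): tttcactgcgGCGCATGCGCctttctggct
Cox6a1 (chr5:115349101-115349130, minus strand): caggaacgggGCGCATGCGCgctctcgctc
Ndufa11 (chr17:56717692-56717721, plus strand): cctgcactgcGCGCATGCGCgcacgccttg
Ndufaf4 (chr4:24897960-24897989, plus strand): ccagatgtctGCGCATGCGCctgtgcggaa
Ndufaf5 (chr2:140170652-140170681, plus strand): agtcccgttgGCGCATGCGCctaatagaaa
Uqcrc1 (chr9:108936668-108936697, plus strand): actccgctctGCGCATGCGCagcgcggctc

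Of the 8 YY1 matches, 6 had both flanks inside the window and lay on the gene's strand. In 5 of these members, all but Atp5j, the match began 11 to 30 bases after the start. The founder log2 change of these 6 members ran from -0.38 for Ndufaf8 to -0.02 for Ndufa9. Ndufs6 (-0.41) and Ndufs4 (0.10), which also hold the match, are not printed. They are shown because the match lies in the transcribed part in most of them, with capitals marking it.
Atp5j (chr16:84835046-84835074, minus strand): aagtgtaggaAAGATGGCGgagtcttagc
Atp5j2 (chr5:145191500-145191528, minus strand): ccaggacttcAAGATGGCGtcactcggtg
Ndufa9 (chr6:126849097-126849125, minus strand): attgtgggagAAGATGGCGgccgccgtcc
Ndufaf8 (chr11:120098934-120098962, plus strand): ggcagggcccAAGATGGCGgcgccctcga
Ndufc1 (chr3:51408915-51408943, minus strand): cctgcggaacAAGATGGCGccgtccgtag
Ndufs7 (chr10:80249463-80249491, plus strand): ggccgaggccAAGATGGCGgcgctggcgg

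Other matches were read in the same windows. The shorter NRF1 match GCGCATG, which is contained in the full one, was in 15 members (21.1%, against 7.78% of listed genes). The GABPA match CCGGAAGT was in 5 (7.04% against 8.67%) and CCAAT in 31 (43.7% against 42.8%). Neither the ER stress response element nor the amino acid response element, searched as TGATGNAAT, was in any member's window, against 0.174% and 0.56% of listed genes.

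In the average over the 8 founder strains, 32 members were lowered by TM and 7 raised, where 29.0% of all 13197 genes were lowered and 25.1% raised. The median log2 change was -0.14 over the members and -0.04 over all genes. In the average over the 5 F1 crosses, 12 members were lowered and 13 raised, against 26.2% and 22.2% of 12803 genes, and the median was -0.006. The founder and F1 sets share no library. In both sets 11 members were lowered (21.6% of 12622 genes in both) and 6 raised (18.7%), and none was called in opposite directions. The direction was the same in 67 of 86 members, or 77.9%, and in 85.6% of all genes.

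**Figure D1:**
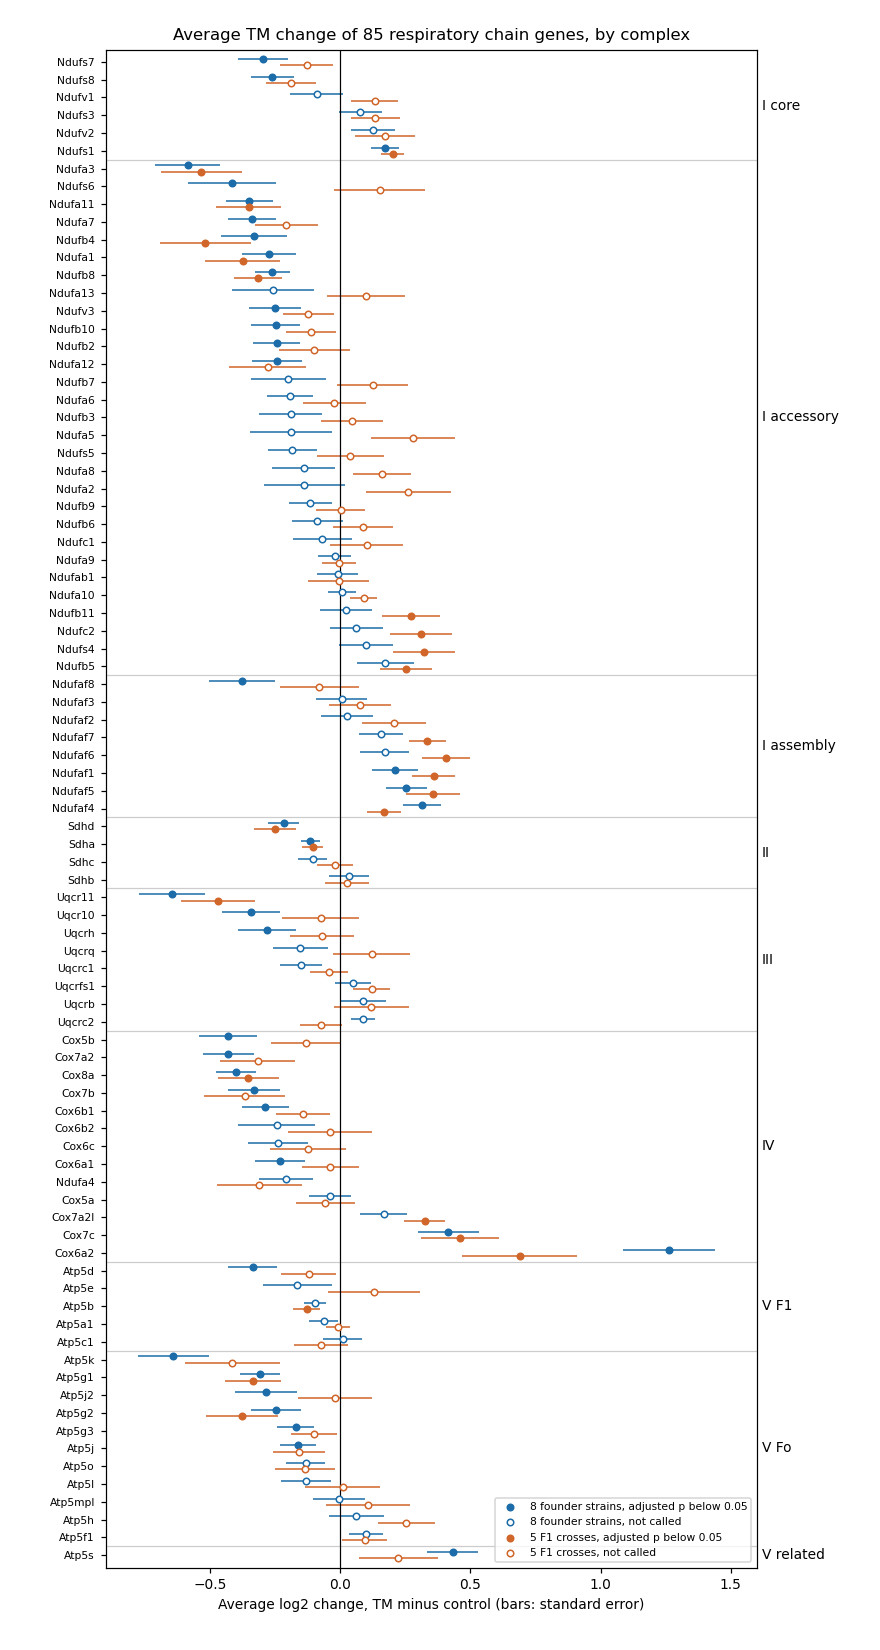
Average log2 change with TM of 85 of the 86 members, by complex, in founders (blue) and F1 crosses (orange), with standard errors; filled points passed a limma adjusted p of 0.05. Most founder points lie left of 0, the assembly factors lie mostly right of it, and Cox6a2 lies farthest to the right at 1.26 in founders.

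The members have short transcripts, with a median of 870 nt against 3029 nt for all listed genes, while their median GC content was the same (50.5%). The founder change was lower in genes with more GC, with a Spearman coefficient of -0.51 over the 86 members and -0.53 over 12937 other genes, and in F1 crosses of -0.31 and -0.40. These are correlations across genes, which are not independent replicates. The 20 members under 600 nt had a median founder log2 change of -0.26, and the 116 other genes of that length -0.21. The 23 members with a GC content of 55% or more had a median of -0.26, against -0.24 for the other genes of that class. Under 45% the medians were 0.04 over 12 members and 0.24 over 2807 other genes, so members were not close to other genes in every class. The differences within classes were not tested. A fit in which each library was first corrected for GC content and length is therefore given beside the one on the values as deposited. With the correction 30 members were lowered and 9 raised in founders (24.6% and 24.6% of all genes), and 26 were lowered and 13 raised in F1 crosses (26.1% and 22.5%). The corrected medians were -0.06 and -0.05. In both sets 17 members were then lowered and 5 raised (18.2% and 18.2% of all genes). The part of GC content and length in the changes was not tested further. Members called in the same direction in both sets under both fits were Ndufa1, Ndufa3, Sdha, Sdhd and Uqcr11 (lowered) and Cox6a2 and Cox7c (raised).

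Complex I takes electrons from NADH. Of its 7 core subunits, Ndufs7 and Ndufs8, which carry iron-sulfur clusters, were lowered in founders (-0.30 and -0.26) and Ndufs1, the largest of them, was raised. Ndufs1 (mRNA of 2661 nt) had a signal of 69.4 to 111 with a median of 80.1 in founder controls and of 80.9 to 114 with a median of 92.4 in TM libraries. Its log2 change was 0.17 ± 0.05 (SE; limma adjusted p = 0.0077) in founders and 0.20 ± 0.05 (limma adjusted p = 0.00075) in F1 crosses, and it was above 0 in all 13 genotypes. With the correction these became -0.02 and 0.03 and did not pass, nor did Ndufs7 (0.02) and Ndufs8 (-0.07) in founders. Corrected, Ndufs8 was lowered in F1 crosses (-0.12) and Ndufv2 in founders (-0.22). Ndufs3 did not pass as deposited (0.08 and 0.14) and was raised in both sets with the correction (0.17 and 0.13). Ndufv1, which binds NADH, had changes of -0.09 and 0.13 that did not pass. With the correction Ndufv1 was raised in F1 crosses (0.18) and did not pass in founders (0.03).

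Among the 29 accessory subunits of complex I, 11 were lowered and none raised in founders (29.0% and 25.1% of all genes). With the correction Ndufa7, Ndufb10, Ndufs6 and Ndufv3 no longer passed there. Ndufa9 (-0.14), Ndufb3 (-0.33), Ndufc1 (-0.31) and Ndufs5 (-0.16) were then lowered and Ndufb9 (0.08) was raised. Ndufa3, a small subunit of the membrane arm (chr7:3617373-3620327 of GRCm38, plus strand), was lowered most. Its signal ran from 28.1 to 50.1 with a median of 41.8 in founder controls, and from 15.7 to 58.8 with a median of 27.7 in TM libraries. The ranges overlapped, the highest TM value being that of replicate 2 of A. In F1 controls it ran from 24.6 to 71.8 (median 34.6) and in F1 TM libraries from 12.8 to 43.4 (median 24.7). The log2 change was -0.59 ± 0.13 (limma adjusted p = 0.00026) in founders, or 0.667-fold, and -0.53 ± 0.16 (limma adjusted p = 0.0075) in F1 crosses. It was below 0 in 13 of 13 genotypes, and -0.44 and -0.53 with the correction. The X-linked Ndufa1 was lowered by less (-0.27 and -0.37). Ndufa11, Ndufb4 and Ndufb8 were lowered in both sets (-0.35 and -0.35; -0.33 and -0.52; -0.26 and -0.32), and with the correction they passed in F1 crosses but not in founders. In F1 crosses 5 accessory subunits were lowered and 4 raised (26.2% and 22.2% of all genes). The latter were Ndufb11, Ndufc2, Ndufs4 and Ndufb5 with changes of 0.25 to 0.32. With the correction Ndufb11 and Ndufc2 passed (0.25 and 0.22), while Ndufs4 (0.03) and Ndufb5 (0.10) did not.

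The assembly factors of complex I do not stay in the finished complex. In founders 3 of 8 were raised (Ndufaf1, Ndufaf4 and Ndufaf5), where 25.1% of all genes were, and 1 was lowered (Ndufaf8, a partner of Ndufaf5, -0.38). In F1 crosses 5 were raised, Ndufaf6 and Ndufaf7 in addition (22.2% of all genes), and 0 lowered. No test was made against the subunits. Ndufaf5, which hydroxylates an arginine of Ndufs7 (chr2:140170649-140203689, plus strand), had a signal of 6.69 to 20.6 (median 9.92) in founder controls and of 8.72 to 20.3 (median 12.02) in TM libraries. In F1 crosses the medians were 7.33 and 9.26. The log2 changes were 0.25 ± 0.08 (limma adjusted p = 0.0078) and 0.36 ± 0.10 (limma adjusted p = 0.0066), with overlapping ranges. Corrected, its changes were 0.13, which passed, and 0.18, which did not. Ndufaf4 has an mRNA of 3632 nt with a GC content of 39%, and its changes of 0.32 and 0.17 turned to -0.04 and -0.09 with the correction. Ndufaf1 went from 0.21 and 0.36 to 0.03 and 0.15, and no longer passed. Ndufaf6 and Ndufaf7, an arginine methyltransferase, still passed in F1 crosses (0.30 and 0.17).

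Complex II, which is also the succinate dehydrogenase of the citric acid cycle, has 4 subunits. Sdhd, a membrane anchor, had a signal of 72.2 to 107 (median 95.4) in founder controls and of 64.2 to 110 (median 78.7) in TM libraries, and medians of 73.1 and 61.5 in F1 crosses. It was lowered by TM in both sets, with log2 changes of -0.22 ± 0.06 (limma adjusted p = 0.0027) and -0.25 ± 0.08 (limma adjusted p = 0.013), and by more with the correction (-0.28 and -0.37). It was below 0 in 12 of 13 genotypes. Sdha, the flavoprotein that oxidizes succinate, was lowered by a smaller amount (-0.11 and -0.10). The iron-sulfur subunit Sdhb had changes of 0.04 and 0.03 that did not pass. With the correction Sdhb was raised in founders (0.14) and did not pass in F1 crosses (0.03).

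Complex III passes electrons from ubiquinol to cytochrome c. Its small subunit Uqcr11 (chr10:80402997-80406830, minus strand) had the largest fall of the members in founders together with Atp5k. The signal was 72.8 to 106 with a median of 83.0 in founder controls, and 30.5 to 102 with a median of 58.1 in TM libraries. In F1 crosses the controls ran from 46.4 to 166 (median 70.1) and the TM libraries from 33.6 to 67.2 (median 51.7). The highest values in TM and in F1 controls were those of replicate 2 of A and replicate 1 of xWSB, which stood apart. Its log2 change was -0.64 ± 0.13 (limma adjusted p = 9.4e-05) in founders, or 0.640-fold, and -0.47 ± 0.14 (limma adjusted p = 0.0089) in F1 crosses. It was below 0 in 13 of 13 genotypes, and -0.27 and -0.30 with the correction, so that under a correction for GC content and length the size was smaller but still passed. Uqcr10 and the hinge protein Uqcrh were lowered in founders (-0.34 and -0.28), and had changes of -0.07 each in F1 crosses that did not pass. With the correction Uqcrh was still lowered in founders (-0.19), and Uqcr10 had a change of -0.05 that did not pass. The difference between the sets was not tested. Neither the core protein Uqcrc1 nor the Rieske protein Uqcrfs1 passed in either set. Uqcrc2, the other core protein, did not pass as deposited (0.09 and -0.07) and was lowered in both sets with the correction (-0.16 and -0.32). The promoter window of Uqcr11, 150 bases at chr10:80406792-80406941 on the minus strand, is shown as that of the lowered member with the smallest p among the subunits of complex III, with capitals for a GABPA match and the shorter NRF1 match in reverse.
Uqcr11: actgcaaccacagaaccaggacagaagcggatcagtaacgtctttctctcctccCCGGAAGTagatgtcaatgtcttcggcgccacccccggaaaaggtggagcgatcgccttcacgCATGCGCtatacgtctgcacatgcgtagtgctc

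Complex IV, cytochrome c oxidase, hands electrons to oxygen, and its members moved in both directions. In founders 6 of 13 were lowered (29.0% of all genes), namely Cox5b, Cox7a2, Cox8a, Cox7b, Cox6b1 and Cox6a1. There 2 were raised (25.1%), Cox7c and Cox6a2. In F1 crosses, as deposited, only Cox8a was lowered (26.2% of all genes). Cox7a2l, which joins complexes III and IV in supercomplexes, was raised there in addition to Cox7c and Cox6a2 (22.2%). With the correction Cox5b (-0.45 and -0.24), Cox6b1 (-0.18 and -0.17), Cox6c (-0.17 and -0.18) and Cox7a2 (-0.31 and -0.32) were lowered in both sets. Cox7a2l was then raised in both (0.14 and 0.22). Cox7b, a small structural subunit, had a signal of 36.4 to 103 (median 81.6) in founder controls and 41.5 to 107 (median 61.7) in TM libraries. Its log2 changes were -0.33 ± 0.10 (limma adjusted p = 0.0069) and -0.37 ± 0.15 (limma adjusted p = 0.055). The correction, for an mRNA with a GC content of 42%, took them to -0.63 and -0.69, the largest falls of any member in that fit in both sets. Ndufa4, now counted with complex IV, did not pass as deposited (-0.21 and -0.31) and was lowered with the correction (-0.34 and -0.52). Cox8a went the other way in founders, from -0.40 to -0.08, which did not pass, while in F1 crosses it was lowered under both (-0.35 and -0.21). Cox6a1 changed sign in founders, from -0.23 to 0.09.

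Cox7c (chr13:86044816-86046904, minus strand) was raised in both sets. Its signal was 14.1 to 34.9 with a median of 17.4 in founder controls, and 14.1 to 44.9 with a median of 24.0 in TM libraries. In F1 crosses the median went from 15.6 in controls to 19.98 with TM. The log2 change was 0.42 ± 0.12 (limma adjusted p = 0.0036) in founders, or 1.33-fold, and 0.46 ± 0.15 (limma adjusted p = 0.014) in F1 crosses, and 0.41 and 0.34 with the correction. The change was above 0 in 13 of 13 genotypes. Of the windows of 100 bases along its transcript, 44% also occur in the transcript of another gene, so reads may have been split between them. Cox6a2 had the largest rise (1.26 in founders and 0.69 in F1 crosses). It rested on 0 to 21 reads a library in founder controls, with 5 of 18 libraries at 0, and on 1 to 15 with TM. It passed the filter within only 3 of 8 founder strains, where its change ran from -0.42 to 1.89. Over the settings and the fits without 1 library its founder average ran from 0.33 to 2.33, so the size of the rise is uncertain.

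**Figure D2:**
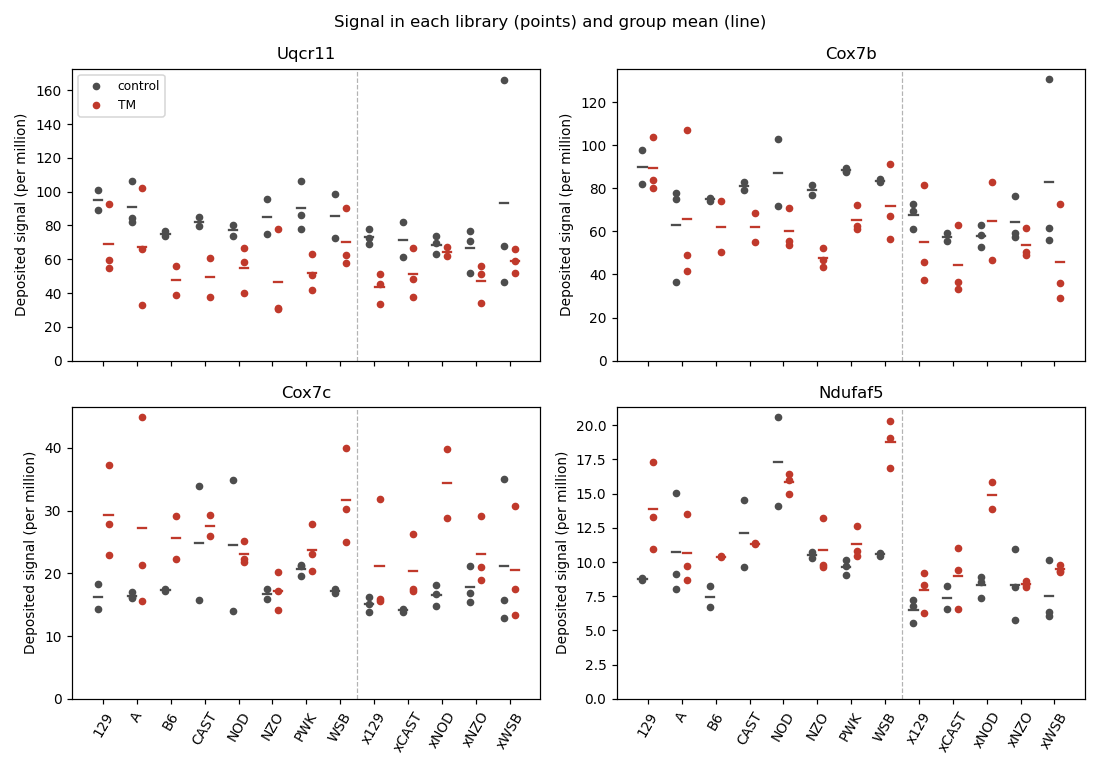
Signal of Uqcr11, Cox7b, Cox7c and Ndufaf5 in each of the 68 libraries, by genotype and treatment. The TM libraries of Uqcr11 mostly lie below the controls of their genotype, those of Cox7c mostly above, and control replicate 1 of xWSB is the highest F1 library for Uqcr11 at 166.

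In complex V, the alpha subunit Atp5a1 had log2 changes of -0.06 and -0.01 that did not pass. Atp5b, the beta subunit, had a signal of 1254 to 1621 (median 1413) in founder controls and of 1119 to 1640 (median 1289) with TM. Its log2 change was -0.10 in founders, which did not pass, and -0.13 (limma adjusted p = 0.045) in F1 crosses. With the correction it was lowered in both sets (-0.10 and -0.17). In the F1 head Atp5d, the delta subunit, was lowered in founders (-0.33, and -0.05 with the correction, not passing). In the Fo part and stalks 6 of 11 were lowered in founders (29.0% of all genes), namely Atp5k, Atp5g1, Atp5j2, Atp5g2, Atp5g3 and Atp5j. In F1 crosses 2 were lowered (26.2%), Atp5g1 and Atp5g2. Atp5k, the e subunit, which holds ATP synthase dimers together, went from a median signal of 36.5 to 26.3 in founders. Its log2 change there was -0.64 ± 0.14 (limma adjusted p = 0.00022), or 0.642-fold, and -0.35 with the correction. In F1 crosses it was -0.41, which did not pass, and -0.30 with the correction, which did. Atp5h, also of this part, did not pass as deposited (0.06 and 0.25). With the correction Atp5h was raised in both sets (0.15 and 0.22). Atp5s was raised in founders (0.43), and had a change of 0.02 with the correction that did not pass.

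The 3 genes Atp5g1, Atp5g2 and Atp5g3 encode the same mature c subunit, which forms the rotor ring. Atp5g3 gave a median of 49.9% of their summed signal in founder controls and 52.5% with TM, and 49.4% and 53.0% in F1 crosses. Atp5g1 and Atp5g2 took close to equal parts of the rest, with medians of 24.2% and 24.9% in founder controls. Atp5g1 was lowered in both sets (-0.31 and -0.33), as was Atp5g2 (-0.25 and -0.38). With the correction Atp5g1 passed in founders (-0.33) but not in F1 crosses (-0.32), and Atp5g2 in F1 crosses (-0.30) but not in founders (-0.03). Atp5g3 was lowered in founders by less (-0.17) and did not pass in F1 crosses (-0.10). With the correction Atp5g3 passed in both sets (-0.11 and -0.15). No test was made of the difference between the paralogues. Of the windows of Atp5g2, 86% occur in another gene's transcript too, so its counts are uncertain. Atp5l, with 69%, had changes of -0.13 and 0.01 that did not pass.

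Within single genotypes, the members' median log2 change ran from -0.41 in NZO to 0.34 in xNOD as deposited, a span of 0.75, and was below 0 in 9 of 13 genotypes. With the correction for GC content and length it ran from -0.15 in CAST to -0.03 in xNOD, a span of 0.12, and was below 0 in 13 of 13. The correction takes trends with GC content and length out of each library, so a narrower span for short genes is built into it. The medians over all genes ran from -0.06 in xNOD to 0.01 in WSB as deposited. With the correction they ran from -0.09 in xNOD to 0.02 in WSB, and that of xNOD lay below the members' median there. In every other genotype the members' corrected median was the lower of the pair, as in xCAST (-0.05 against -0.02) and CAST (-0.15 against -0.02). The corrected median over all genes was itself below 0 in most genotypes. The side of 0 alone is therefore not shown to be particular to the members, and their distance from all genes was not tested. The medians of the assembly factors were above 0 in 10 of 13 genotypes as deposited, from -0.10 in NOD to 0.63 in xNOD, while those of complex IV were below 0 in 11 of 13.

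**Figure D3:**
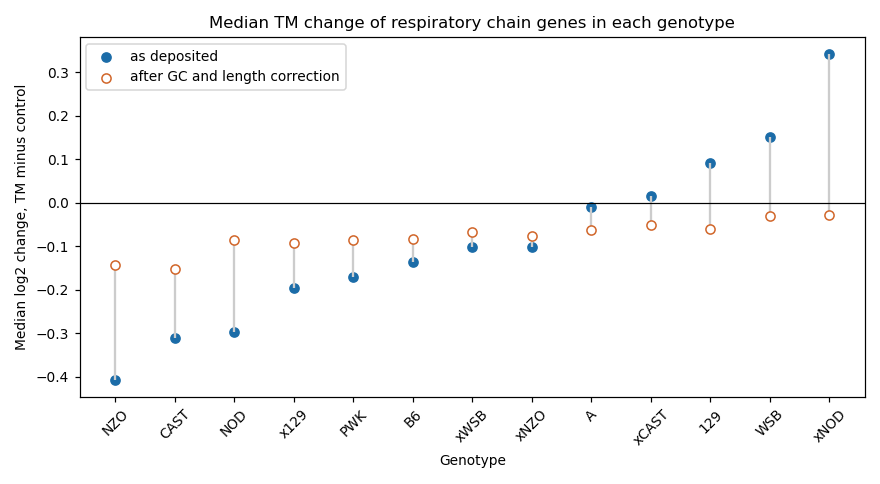
Median log2 change of the members in each of the 13 genotypes, as deposited and after correction for GC content and length. As deposited the medians span -0.41 to 0.34, and corrected they lie between -0.15 and -0.03.

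The number of members called differed widely between genotypes. In PWK 23 were lowered and 1 raised, against 14.8% and 15.1% of all genes. In B6 18 were lowered and 2 raised (16.1% and 16.9%), in CAST 11 lowered and 0 raised (4.55% and 7.32%), and in x129 14 lowered and 0 raised (9.18% and 13.1%). In WSB 7 were raised and 0 lowered (8.57% and 9.99%), and in xNOD 35 raised and 0 lowered (14.0% and 17.2%). In NOD 1 was lowered and 0 raised (1.23% and 3.67%) and in xCAST 0 and 2 (5.76% and 6.23%). No member was called in the other 5, where the shares of all genes lowered and raised were 0.386% and 2.34% in 129, 0.102% and 1.06% in A, 0.413% and 2.00% in NZO, 1.68% and 4.36% in xNZO and 0.0644% and 0.516% in xWSB. The spread between replicates differed as well, since the median residual SD of the members was 0.14 in B6, PWK and xNOD but 0.50 in A and in xWSB. With the correction 16 members were lowered in PWK (14.0% of all genes), 11 in B6 (9.65%), 11 in x129 (6.16%) and 4 in CAST (2.08%), while xNOD went to 2 raised and 10 lowered (7.01% and 10.3%). WSB went to 2 raised, where 1396 of 12668 genes were raised, and 3 lowered (7.13%), xCAST to 1 raised and 3 lowered (7.13% and 4.84%) and NOD to 0 raised and 5 lowered (6.11% and 2.31%).

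Uqcr11 shows the values behind these counts. In PWK its signal was 106, 85.95 and 78.0 in controls and 50.4, 42.0 and 63.4 with TM, a log2 change of -0.80 ± 0.14 (limma adjusted p = 0.0011). In B6 it was 73.8 and 76.7 in controls and 38.7 and 56.3 with TM (-0.69; limma adjusted p = 5.0e-04), and in x129 it was 72.7, 69.0 and 78.0 against 51.1, 33.6 and 45.3 (-0.78). In all of these the groups did not overlap. In NZO the controls had 74.7 and 95.4 and the TM libraries 30.5, 31.0 and 78.0, so that TM replicate 3 lay among the controls. In xNOD the controls had 62.9, 73.5 and 69.6 and the TM libraries 67.2 and 61.9, which overlapped.

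Cox7c showed the opposite pattern. In xNOD its signal was 14.8, 18.1 and 16.7 in controls and 39.8 and 28.9 with TM, a log2 change of 1.04, the largest of 11 members there that were raised at an adjusted p of 0.01 and a fold of 1.5 (3.69% of all genes). In WSB it was 17.5 and 16.9 in controls and 39.9, 30.2 and 25.01 with TM (0.85; limma adjusted p = 0.020), and in B6 17.3 and 17.5 against 22.3 and 29.1 (0.55; limma adjusted p = 0.0035). The groups did not overlap in these 3 genotypes. In NZO the controls had 17.6 and 15.9 and the TM libraries 20.2, 17.2 and 14.1, and did overlap. At the same stricter threshold Uqcr11, Ndufa3 and Atp5k were lowered in PWK (4.30% of all genes), Uqcr11 in B6 (3.22%), and Uqcr11 and Ndufa3 in x129 (1.36%).

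Single libraries moved several of these counts. The share of all genes called in the same refit is given beside each. In NZO, 71 members were lowered without TM replicate 3 (26.4% of all genes) and 0 with it. In CAST 55 were lowered without control replicate 3 (14.5%) and 0 without TM replicate 2 (0.973%), and in NOD 57 without control replicate 3 (9.15%). In B6 the count ran from 1 without control replicate 3 (7.28%) to 38 without TM replicate 3 (16.8%). In x129 it ran from 4 without control replicate 1 (2.46%) to 28 without TM replicate 1 (7.12%), and in PWK from 11 without control replicate 1 (8.72%) or TM replicate 2 (10.5%) to 34 without TM replicate 3 (17.1%). In xNOD 70 were raised without TM replicate 2 (21.9%), 31 without TM replicate 1 (15%) and 13 to 15 without 1 of the controls (4.56 to 4.68%). In WSB 0 were raised without control replicate 2 (2.45%) or 3 (5.38%). Where 1 library was left in a group, it was assumed to vary like the other group.

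The members of a library moved together with other short genes. The median deviation of the 86 members from their set means was compared over libraries with that of other genes with transcripts under 1000 nt, 691 in founders and 655 in F1 crosses. Over 40 founder libraries Pearson's r was 0.986 and Spearman's rho 0.927 (permutation p = 1e-05 for each, two-sided, the smallest that 100000 permutations can give), and r was 0.978 without TM replicate 2 of A and TM replicate 1 of 129. Within treatments r was 0.950 over 18 controls (0.873 without the 2 farthest) and 0.993 over 22 TM libraries. Over 28 F1 libraries r was 0.976 and rho 0.957 (permutation p = 1e-05 for each), r was 0.956 without the 2 farthest, and within treatments it was 0.983 over 14 controls and 0.974 over 14 TM libraries. In this family of 6 relations the Benjamini-Hochberg adjusted p was 1e-05 for r in each and at most 1e-04 for rho. Libraries of a genotype share their cells, and all libraries of a set share their scaling. The permutations treat libraries as independent, so their p-values overstate the evidence. The members are mostly short genes themselves (median 870 nt), so a close relation is partly built in. In the genotypes named above, the members and the other short genes of NZO had deviations of -0.44 and -0.38 in TM replicate 1, -0.55 and -0.47 in replicate 2 and 0.09 and 0.10 in replicate 3. In xNOD TM replicates 1 and 2 the members had 0.55 and 0.18 and the other short genes 0.56 and 0.21. The part of this shared movement in the genotype counts was not tested.

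**Figure D4:**
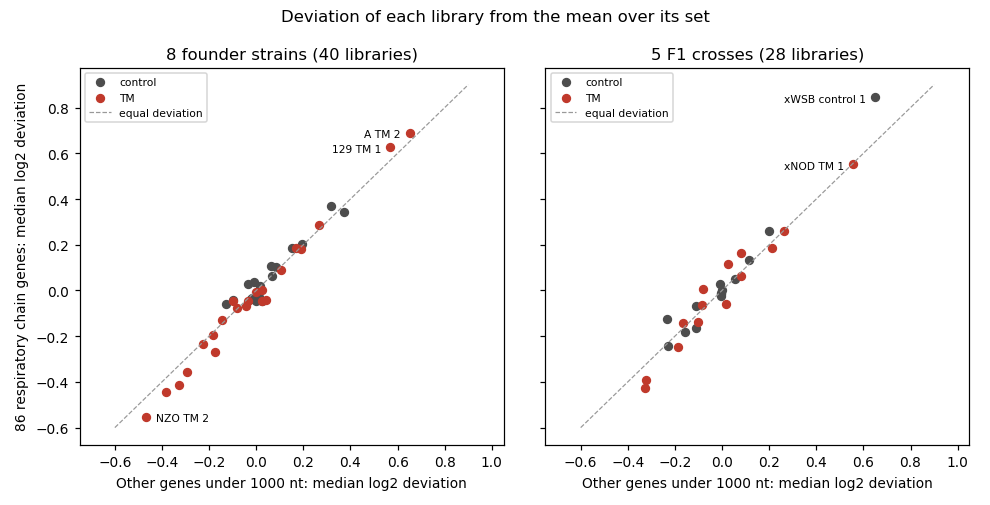
Median log2 deviation of the members (vertical) against that of other genes with transcripts under 1000 nt (horizontal), 1 point per library. The 40 founder and 28 F1 libraries lie along a line (r = 0.986 and 0.976), with control replicate 1 of xWSB and TM replicate 2 of A at the upper end.

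No member passed the test of whether the TM effect differed between genotypes. The limma interaction called 0 of 86 members in founders and 0 in F1 crosses, where 0.288% and 0.109% of all genes were called. At an unadjusted p below 0.05 it called 2 members in founders, Cox6a2 and Ndufaf5 (3.91% of all genes), and 0 in F1 crosses (6.15%). With edgeR on recovered reads, 0 members passed in founders. The within-genotype counts above are therefore not shown to differ between strains for any single member. This does not show that the strains responded alike.

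Few members differed between strains in control cells. At a limma adjusted p below 0.01, 5 of 86 members differed between the 8 founder strains (Ndufa7, Cox6b2, Cox6a2, Ndufa11 and Ndufaf2), against 35.8% of all genes, and the median range of strain means on the log2 scale was 0.46 for members and 0.82 for all genes. In F1 crosses 1 member, Cox6b2, differed, against 21.4% of all genes, with median ranges of 0.28 and 0.52. The founder count was 11 with the correction for GC content and length, 10 without control replicate 1 of A and 2 without either control of B6. The share of all genes called in these refits is not given, so these counts do not show a change particular to the members.

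Ndufa7, an accessory subunit of complex I, had control signals of 80.2 and 82.9 in B6 and of 46.5, 44.6 and 40.9 in PWK. The mean was 81.5 ± 1.87 (SD, n = 2) in B6 and 44.0 ± 2.85 (SD, n = 3) in PWK, a 1.85-fold range (limma adjusted p = 0.00052 over 8 strains). The next strain above PWK was WSB, with 53.1 ± 6.87 (n = 2), and 129 came next below B6, with 75.9 ± 11.1 (n = 2), so that B6 and PWK lay far apart. The libraries of 129 (68.05 and 83.8) overlapped those of B6, while those of WSB (48.2 and 57.9) lay just above those of PWK. No test was made between neighbours. Ndufa11 was highest in 129 (102 ± 8.26, n = 2) and lowest in PWK (60.9 ± 6.62, n = 3; limma adjusted p = 0.0071). Ndufaf2 was highest in NOD, where the controls had 13.3 and 24.1, and lowest in NZO with 6.88 and 7.24 (limma adjusted p = 0.0073).

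Cox6b2, an isoform of subunit 6b known from testis, differed in both sets at a low level of 3 to 79 reads in founder controls. Its signal was 3.26 and 5.12 in NZO, 3.78 and 2.71 in NOD and 2.24 to 2.95 in the 3 libraries of A. In PWK it was 0.621, 0.819 and 0.471. NZO, NOD and A lay above every other strain (limma adjusted p = 0.0012 over 8 strains), and NZO and NOD overlapped. In F1 crosses, all with a B6 parent, the means were 2.39 ± 0.99 (n = 3) in xNZO and 2.18 ± 0.23 (n = 3) in xNOD, against 0.658 ± 0.26 (n = 3) in xWSB (limma adjusted p = 0.0089). Cox6a2 was highest in B6 with 1.34 ± 0.53 (n = 2), and in NOD and NZO controls it was listed at 0.

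**Figure D5:**
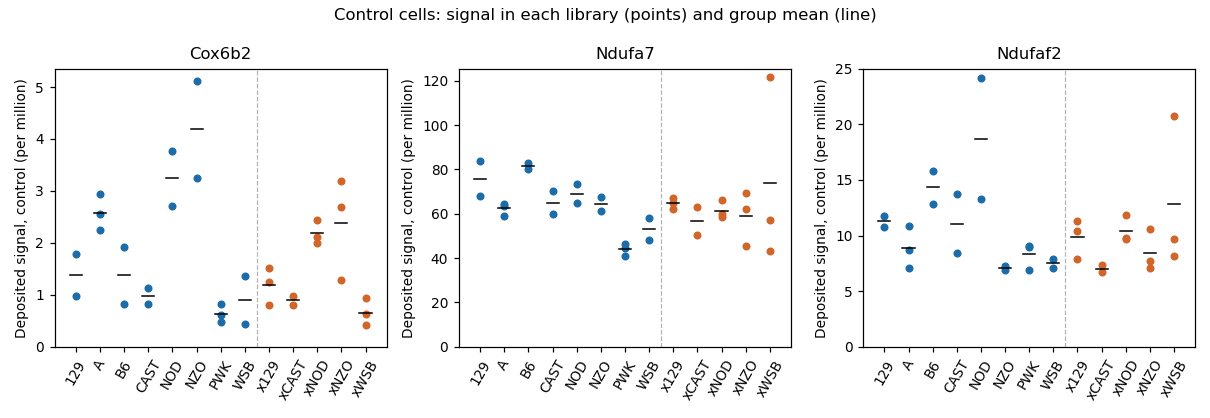
Signal of Cox6b2, Ndufa7 and Ndufaf2 in each control library, by genotype. Cox6b2 is highest in NZO (3.26 and 5.12) and NOD, and Ndufa7 is lowest in PWK (40.9 to 46.5) and highest in B6.

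The electron carrier between complexes III and IV and the neighbours of the chain were read from lists, beside 25.1% of all genes raised and 29.0% lowered in founders, and 22.2% and 26.2% in F1 crosses. Changes and counts in this paragraph and the next are as deposited, without the correction for GC content and length. Cycs, cytochrome c, was raised in both sets (0.23 and 0.32) while Cyc1, the cytochrome c1 of complex III, was lowered (-0.23 and -0.22). Of 28 listed assembly factors of complexes II to V, 9 were raised and 5 lowered in founders, and 8 and 1 in F1 crosses. Examples are Sco1, a copper chaperone of complex IV (0.44 and 0.42), and Tmem70, an assembly factor of ATP synthase (0.41 and 0.35), both raised in both sets, and Pet100 of complex IV, lowered in founders (-0.64). Of 6 complex I assembly factors outside the name rule, Foxred1 (0.40 and 0.33) and Timmdc1 (0.28 and 0.42) were raised in both sets and none was lowered.

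In the citric acid cycle, which feeds the chain, 3 of 13 genes were raised and 5 lowered in founders (25.1% and 29.0% of all genes). In F1 crosses 2 were raised and 5 lowered (22.2% and 26.2%). Dld, the dihydrolipoamide dehydrogenase shared by several complexes, was raised (0.77 and 0.70), and Ogdh (-0.38 and -0.49) and the citrate synthase Cs (-0.20 and -0.35) were lowered. Of the 8 listed regulators of mitochondrial biogenesis, 3 were raised in founders and again in F1 crosses. These were Tfam, the packaging and transcription factor of mitochondrial DNA (0.74 and 0.78), Gabpb1 (0.48 and 0.37) and Yy1 (0.18 and 0.37). Esrra was lowered in founders (-0.31). Nrf1, whose match is shown above, had changes of -0.07 and -0.13 that did not pass. The ribosomal proteins served for comparison, beside the same shares of all genes. Of 77 mitochondrial ribosomal proteins 13 were raised and 13 lowered in founders, and 19 and 6 in F1 crosses, and of 78 cytosolic ones 8 and 14 in founders, and 15 and 4 in F1 crosses.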

How the data were processed

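RNA of 68 libraries was sequenced by the authors as single-end reads from an unstranded TruSeq kit. Per the paper's methods and the submitters' processing notes, reads were aligned with TopHat 1.4.1 to strain-specific genomes (notes: GRCm38 and mm10), libraries were scaled by TMM in edgeR, libraries that did not group with their condition on principal components were dropped before a second scaling. Dropped libraries are not analysed here. The deposited values are called FPKM but are signal per gene: whole multiples of 1 step per library, without division by length. Tests planned for FPKM were kept. Whole reads were recovered in 66 libraries (tolerance 0.02). The other 2, a PWK library (TM replicate 2) and a WSB library (TM replicate 1), have steps close to 0.1 that could be rounding, and the edgeR and DESeq2 fits leave them out. The F1 tables also hold 3 lines of unassigned reads, left out.

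Signal was tested as log2(signal + 0.1) with limma 3.58.1 in R 4.3.3 (trended variances, Benjamini-Hochberg over all genes), after a filter that asked for a signal of 0.5 or more in 2 or more of the libraries fitted. A set was fitted with all its genotypes for average changes, interactions and control differences. The threshold for the stricter calls (adjusted p below 0.01 and 1.5-fold) follows the study. GC content and length came from 1 GENCODE M21 (GRCm38) transcript per gene and were removed per library by lowess (span 0.3). edgeR 4.0.16 and DESeq2 1.42.0 ran on recovered reads. Members and lists were chosen with earlier results of these data known. Named members were up to 10 per direction called in both sets, those with the smallest p for interaction and control differences, paralogues and catalytic subunits; members given as examples for a complex (among them Cox7b, Cox5b, Atp5k, Atp5d, Ndufaf6 to Ndufaf8, Uqcr10 and Uqcrh) were chosen after their values were seen. Statistics were checked on simulated data. Replicate numbers do not pair the cultures in most genotypes. In xWSB the deviations of same-numbered libraries correlated (r = 0.26, 0.16 and 0.12). Control replicate 2 there correlated more with TM replicate 3 (r = 0.25), so pairs by number are not shown. The values of 1 member are not reported here.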

Additional observations from a re-analysis of the deposited data

How the results depend on the processing

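Results named for single members mostly kept their direction and side of the threshold; Uqcr11, Ndufa3, Sdhd and Cox7c did so in both sets under every setting run and without any 1 library. The founder count of 32 lowered members was 21 with edgeR on recovered reads. The F1 count of 12 (26.2% of all genes) was 26 with the correction for GC content and length (26.1%). That correction reversed Ndufaf4 (-0.0437 in founders, -0.0904 in F1 crosses), Cox6a1 (0.0903), Ndufs1 (-0.0242), Ndufs7 (0.02) and Atp5j (0.02) in founders, and gave 11 members with strain differences in control cells instead of 5. Uqcrc2 (-0.16), Ndufv2 (-0.22), Uqcrb (-0.09) and Ndufb9 (0.08) also crossed 0 in founders and passed only when corrected. Calls within founder strains, summed over strains, were 53 lowered and 10 raised. In 1 fit over the whole set they were 3 lowered and 5 raised, with the correction 3 were raised, and with edgeR 6. At the stricter threshold 4 were lowered and 0 raised; 1 fit gave 0 and 3, and edgeR 1 and 1. Within F1 crosses 14 were lowered and 37 raised. In 1 fit these were 0 and 13, and with the correction 28 and 3. At the stricter threshold 2 were lowered and 11 raised, 0 and 1 in 1 fit, and with the correction 0 were raised. The causes were not tested. For most counts here and in the paragraphs below, the share of all genes called in the same refit is not given. Those counts therefore do not show a change particular to the members. Libraries that stood apart were left out as an alternative chosen after seeing the data, which gave 41 lowered and 6 raised in founders and 11 and 16 in F1 crosses.

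Replicate numbers did not pair the cultures over the genotypes (7 of 29 same-numbered pairs correlated above 0.1, median r 0.02). In xWSB all 3 pairs did (r = 0.26, 0.16 and 0.12), and in NZO both (0.19 and 0.22). With a replicate block 0 members were called in xWSB, as without it, and 2 lowered in NZO. Over the sets, the block gave 12 members lowered in founders, 4 raised within founder strains, and 1 raised at the stricter threshold.

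Without any 1 library, the founder average called 21 (without TM replicate 1 of B6) to 40 members lowered and 6 to 10 raised, and the interaction 0 to 0. The F1 average called 7 (without TM replicate 2 of xNOD) to 18 (without control replicate 3 of xWSB) lowered and 8 to 21 (without control replicate 1 of xWSB) raised. Control differences between the founder strains were 2 to 10. Summed calls within founder strains were 36 to 124 lowered (2 to 45 at the stricter threshold) and 3 to 20 raised (0 to 1). Within F1 crosses they were 4 to 28 lowered (0 to 10) and 15 to 72 raised (0 to 34). Low members such as Cox6a2 and Cox6b2 rest on few reads, which limits what depth can show for them.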
